A study of Sus scrofa with 6 samples.

Results

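miR-221 and miR-222 are 2 microRNAs (miRNAs, short RNAs that guide Argonaute proteins to messenger RNAs and lower their output) cut from neighbouring hairpins. Their products were taken by name from a table of small RNA levels in cultured pig immature Sertoli cells: ssc-miR-221-3p and ssc-miR-221-5p, the products of the 3' and 5' arms of the miR-221 hairpin, and ssc-miR-222, listed without an arm (ssc stands for the pig, Sus scrofa, and is left out from here on). All 3 were found among 1645 listed entries, of which 358 were known pig miRNAs and 1287 predicted ones, and all 3 passed the filter on low values that 433 entries passed. The group was chosen by its levels in this table, being known to stand lower under vitamin C. Its levels in that comparison are therefore given as a description, with no test.

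The cells came from the testes of pig fetuses, at 80 to 90 gestation days, and were cultured in medium with 10% fetal bovine serum. The 3 control libraries came from untreated cells. The 3 AA2P libraries came from cells given 250 µM AA2P, the sesquimagnesium salt hydrate of L-ascorbic acid 2-phosphate and a stable derivative of vitamin C, after 6 h of culture. The sources used here do not give the pig breed or the length of treatment. They also do not say whether replicate libraries stem from different cultures or animals, so the p-values reflect the spread between these samples alone, which may be technical.

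miR-221-3p and the 3' product of miR-222 are known to share a seed, the stretch near the 5' end that pairs with targets, and so to repress a common set of messenger RNAs. The miR-222 entry was taken to be that product, an assumption that was not checked against a sequence. The best known target is CDKN1B (p27Kip1), an inhibitor of cyclin-dependent kinases that holds cells out of the cell cycle; others are CDKN1C (p57Kip2), the receptor KIT and the protease inhibitor TIMP3. In other cells, transcription of the miR-221 and miR-222 precursor is known to be raised by AP-1 and NF-κB. Sertoli cells nurse germ cells in the seminiferous tubule and divide before puberty, and CDKN1B is known to limit their number. Messenger RNAs and proteins were not measured in these libraries, so nothing here bears on the level of any target.

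Levels are in TPM, counted reads set to 1 fixed total for every library. The shared step between low values put the depth at 25.8 to 32.2 Mreads (counted reads, M for mega) in control libraries and 26.9 to 36.0 Mreads in AA2P libraries. As a check of the cell type, miR-140-3p, a miRNA of gonadal somatic and other cells, stood at 1106 ± 61.5 TPM in controls and 1178 ± 69.9 TPM with AA2P (SD, n = 3 each, as for all mean ± SD here), while miR-202-5p, a miRNA known from the gonads, stood at 0.40 to 1.01 TPM over the 6 libraries. miR-202-3p was listed at 0 in all control libraries and at 0.11 TPM at most with AA2P, and a count of 0 allows up to 3 reads, or 0.0834 to 0.116 TPM in these libraries. None of the 3 tested members of the Sertoli and gonadal somatic list passed limma's test between the groups (2 at an unadjusted p under 0.05), though 1 or 2 did in 5 of 18 alternatives, among them leaving out AA2P replicate 3. The list also held miR-140-5p, at 85.15 ± 8.81 and 114.0 ± 12.8 TPM. Scarcer were miR-132, at 2.363 ± 0.592 and 4.4 ± 0.866 TPM, and miR-212, at 0.5533 ± 0.292 and 0.79 ± 0.0755 TPM. The check therefore rests on miR-140, which other cells also hold, and does not settle the cell type.

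miR-221-3p was the most abundant of the products. In the control libraries it stood at 6848.83, 4890.72 and 6356.07 TPM, and in the AA2P libraries at 2547.66, 2909.4 and 2891.9 TPM. The groups did not overlap, and the lowest control library was 1.68 times the highest AA2P library. The means were 6032 ± 1019 TPM and 2783 ± 204 TPM, 2.17-fold lower with AA2P. Control replicate 2 lay apart from the other control libraries, on the side of the AA2P group.

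miR-222, the product of the partner hairpin, stood at 5131.68, 4354.21 and 4711.42 TPM in the control libraries and at 1474.08, 1883.1 and 1921.97 TPM in the AA2P libraries. These values were also separate, with the lowest control 2.27 times the highest AA2P library. The means were 4732 ± 389 TPM and 1760 ± 248 TPM, 2.69-fold lower with AA2P, the widest gap of the 3 products.

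miR-221-5p, the scarcer arm of the miR-221 hairpin, stood at 361.97, 412.61 and 443.76 TPM in the control libraries and at 199.14, 278.15 and 260.15 TPM in the AA2P libraries. It too was lower in each AA2P library than in any control, but with the narrowest gap, the lowest control being 1.3 times the highest AA2P library. The means were 406.1 ± 41.3 TPM and 245.8 ± 41.4 TPM, 1.65-fold lower with AA2P. Separate groups with the AA2P side lower were seen for all 3 products and for 9.24% of the tested entries.

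**Figure D1:**
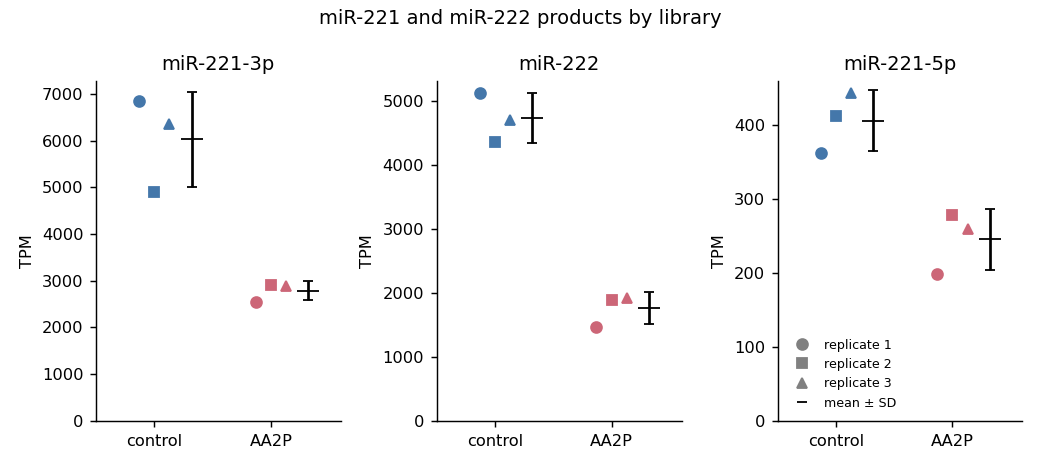
Level in TPM (y axis, from 0) of miR-221-3p, miR-222 and miR-221-5p in the 3 control and 3 AA2P libraries; symbols mark the replicate number and the bars the mean ± SD of a group. Each product is lower in each AA2P library than in any control, and AA2P replicate 1 is the lowest library for all 3.

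The order of the libraries was not the same for the 3 products. AA2P replicate 1 was the lowest library for each of them. Among controls, replicate 1 held the most miR-221-3p and the most miR-222 but the least miR-221-5p, and replicate 2 held the least of the first pair. The spread between replicates was far wider than counting error: the coefficient of variation within a group was 7.33 to 16.9%, while the implied reads, 5353 in the thinnest case and 192716 in the deepest, carried a counting error of 0.23 to 1.4%. The counting error treats reads as independent molecules, which they need not be without molecular identifiers.

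Together the 3 products took 0.966 to 1.23% of the TPM of a control library and 0.422 to 0.507% of an AA2P library. Their summed mean was 11170 ± 1375 TPM in controls and 4789 ± 492 TPM with AA2P, which is 42.9% of the control level. Ordered by mean TPM over all entries, miR-221-3p stood at place 17 in controls and 36 with AA2P, miR-222 at 22 and 50, and miR-221-5p at 84 and 106. In TPM lost between the group means, miR-221-3p (-3249 TPM) and miR-222 (-2973 TPM) took places 2 and 3 after miR-21-5p, the dominant miRNA of these cells, whose level went from 520562 ± 8757 to 410890 ± 36994 TPM. Of the TPM lost by all entries with a lower mean, miR-21-5p held 85.2%, miR-221-3p 2.52% and miR-222 2.31%. TPM values share a fixed total, so the level of any miRNA also depends on that of the others, and fewer cells with a miRNA cannot be told apart from less of it per cell.

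The known miRNAs next to each product in control level overlapped it. miR-221-3p (4890.72 to 6848.83 TPM) lay between miR-182 (6384.53 to 7136.47 TPM) and miR-152 (5100.83 to 6429.1 TPM). miR-222 lay between miR-103, at 5531 ± 588 TPM, and miR-191, at 4638 ± 437 TPM. miR-221-5p lay between miR-296-3p, at 412.1 ± 34.3 TPM, and miR-450a, at 406.1 ± 56.0 TPM, and did not differ from either beyond the spread. With AA2P the means of these neighbours were 6310 ± 1034 TPM for miR-182, 3744 ± 531 TPM for miR-152, 6179 ± 398 TPM for miR-103, 5763 ± 947 TPM for miR-191, 416.4 ± 16.0 TPM for miR-296-3p and 761.1 ± 94.6 TPM for miR-450a, so of these 6 miR-152 and, by a small margin, miR-182 had a mean below their control range, and miR-103, miR-191 and miR-450a a mean above it.

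On the log2(TPM + 1) scale, on which the whole table was fitted with limma, the change with AA2P was -1.43 for miR-222 (SE 0.126), -1.1 for miR-221-3p (SE 0.140) and -0.73 for miR-221-5p (SE 0.15). The median change of all tested entries was 0.25, so relative to it the products stood at -1.68, -1.35 and -0.98. Counted from the lowest change of 433 entries, miR-222 was at place 9, miR-221-3p at 15 and miR-221-5p at 28. Among the 249 tested entries whose mean reached 10 TPM the places were 5, 9 and 10.

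**Figure D2:**
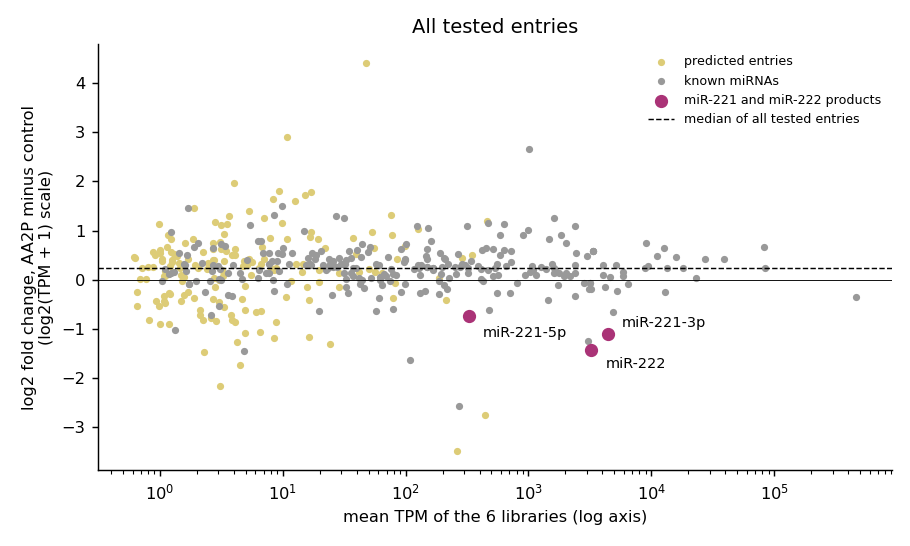
Log2 fold change with AA2P (y axis, log2(TPM + 1) scale) against mean TPM of the 6 libraries (x axis, log scale) for the 433 tested entries; large points are the 3 products, grey points known miRNAs, yellow points predicted entries, and the dashed line the median change of 0.25. miR-222, at -1.43, and miR-221-3p, at -1.1, lie among the abundant miRNAs and below nearly all others at that level.

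Other scalings made the gap wider. Trimmed-mean scaling, median-of-ratios scaling, quantile normalization and totals without the most abundant miRNAs brought the median of all entries to between -0.01 and 0.07, and the change then ran from -1.73 to -1.53 for miR-222, from -1.40 to -1.12 for miR-221-3p and from -1.03 to -0.93 for miR-221-5p. Taken relative to the median under each of these scalings, the values were -1.72 to -1.54, -1.39 to -1.14 and -1.01 to -0.95, which bracket the values as deposited for miR-222, miR-221-3p and miR-221-5p. With any single library left out the change was -1.50 to -1.31, -1.25 to -1.0 and -0.83 to -0.59.

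**Figure D3:**
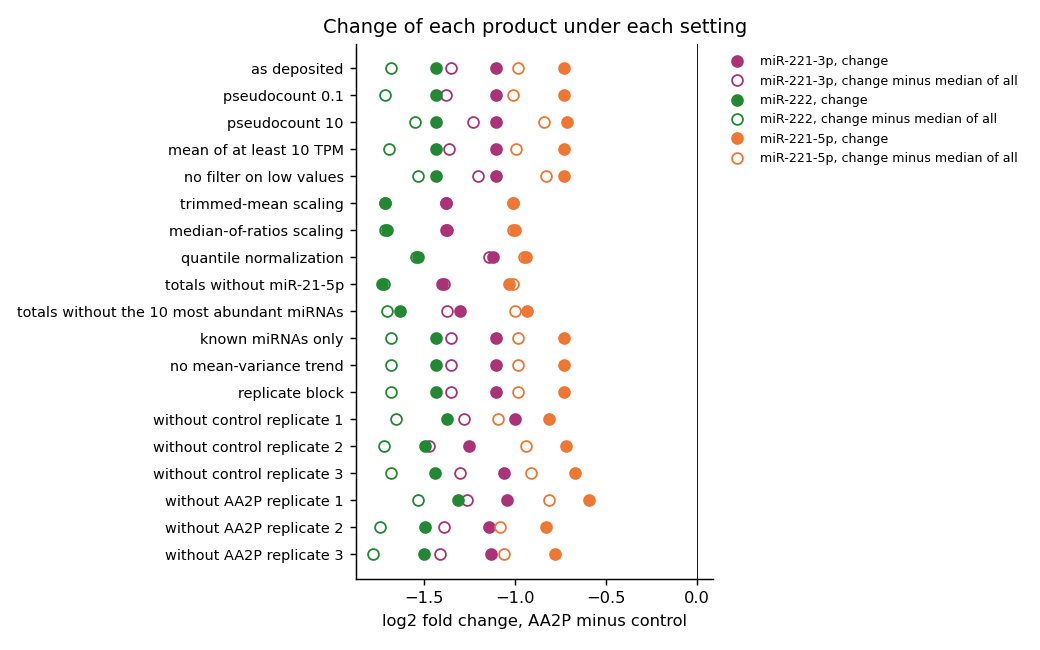
Log2 fold change with AA2P (x axis) of the 3 products under each setting (y axis); filled points are the change and open points the change minus the median of all tested entries under that setting. All points lie below 0, and the order miR-222, miR-221-3p, miR-221-5p holds in each row of the plot.

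Ratios between the products, in which the scaling of a library cancels, showed how far they moved together. The level of miR-222 was 74.9, 89.0 and 74.1% of that of miR-221-3p in the control libraries and 57.9, 64.7 and 66.5% in the AA2P libraries. All AA2P values lay below all control values. The mean log2 ratio was -0.34 ± 0.148 in controls and -0.67 ± 0.106 with AA2P, or -0.33 apart, and leaving out control replicate 2, the highest library, brought the difference to -0.24. miR-222 thus stood further below its control level than its partner did. This difference was seen in the comparison that chose the products and is a description too.

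The share of the minor arm of miR-221 varied more. miR-221-5p stood at 5.29, 8.44 and 6.98% of miR-221-3p in the control libraries and at 7.82, 9.56 and 9.0% in the AA2P libraries. Here the groups overlapped, since control replicate 2 exceeded AA2P replicate 1. The mean log2 ratio was -3.88 ± 0.339 in controls and -3.51 ± 0.148 with AA2P; they differed by 0.37, and by 0.19 without control replicate 1. Of 39 hairpins with both arms at a mean of at least 10 TPM, miR-221 took place 3 in the size of the difference, while 23.1% had arm ratios whose groups did not overlap. Set against miR-222, miR-221-5p stood at 7.05, 9.48 and 9.42% in the control libraries and at 13.5, 14.8 and 13.5% in the AA2P libraries, and these groups did not overlap.

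The order of the products within a library was not what chose them and was tested, though the test was chosen with earlier results of these data known. It pools both groups, whose ratios differed as given above, so the SD over 6 libraries holds that difference too. miR-222 stood below miR-221-3p in 6 of 6 libraries, with a mean log2 ratio of -0.50 ± 0.214 (SD, n = 6; two-sided exact sign-flip permutation test over libraries, p = 0.031, adjusted over 3 pairs p = 0.031). miR-221-5p stood below miR-221-3p, at -3.69 ± 0.310, and below miR-222, at -3.19 ± 0.417, in 6 of 6 libraries, each with the same exact permutation p of 0.031, the smallest that 6 libraries allow. The values hold no length term, and how evenly the library preparation captured different small RNAs is not given in the sources used here, so these levels compare sequenced reads.

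**Figure D4:**
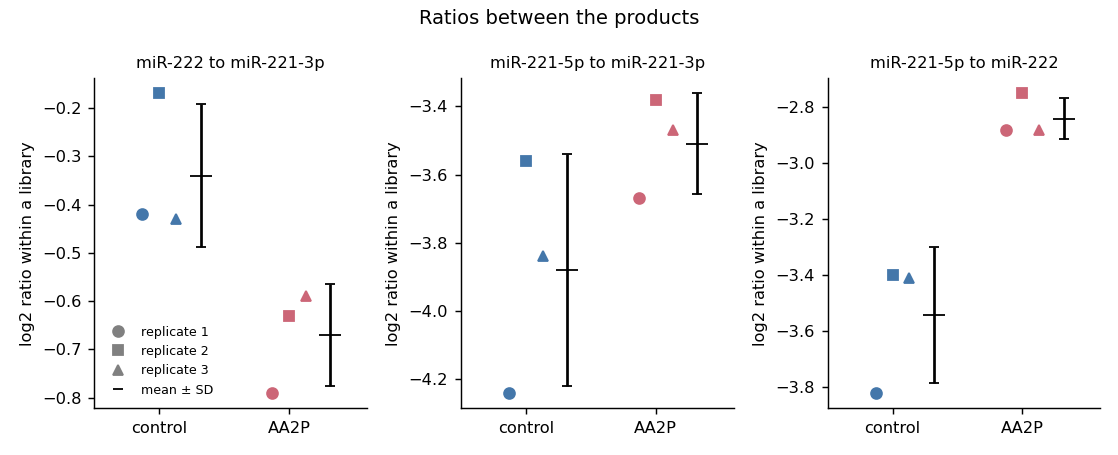
Log2 ratio within a library (y axes, which do not start at 0) of miR-222 to miR-221-3p, miR-221-5p to miR-221-3p and miR-221-5p to miR-222, in control and AA2P libraries; symbols mark the replicate number and the bars the mean ± SD. The groups are separate in the panels with miR-222 and overlap in the middle panel, which runs from -4.24 to -3.56 in controls and from -3.67 to -3.38 with AA2P.

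The known miRNAs whose levels followed the products most closely were found by Pearson's r of log2(TPM + 1) over the 6 libraries, among 263 others. The libraries fall into the 2 treatment groups and share their totals. A high r therefore mostly reflects a difference between groups in the same direction, whatever its size. For miR-222 the closest were miR-146b (r = 0.997) and miR-146a-5p (0.993), which restrain Toll-like receptor signalling, then miR-221-3p (0.983), miR-210, the best known hypoxia-induced miRNA (0.966), and miR-574-5p (0.961). For miR-221-3p they were miR-29a-3p, a repressor of collagens (0.983), miR-222 (0.983), miR-146a-5p (0.976), miR-146b (0.974) and miR-210 (0.961). Log2 fold changes with AA2P among these ran from -0.42 for miR-29a-3p and -0.64 for miR-574-5p to -2.57 for miR-210. miR-221-5p stood at place 7 for miR-222 (0.936) and at place 12 for miR-221-3p (0.890), behind miRNAs of other hairpins in both cases.

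With each group's mean removed, the remaining variation linked some of these more than others. There r was 0.76 between miR-222 and miR-221-3p, 0.93 between miR-222 and miR-146b, 0.78 between miR-222 and miR-146a-5p, and 0.89 between miR-221-3p and miR-29a-3p. It was -0.46 between miR-222 and miR-210 and -0.13 between miR-222 and miR-574-5p, whose likeness to miR-222 thus lay in the difference between groups. It was 0.57 between miR-222 and miR-221-5p and 0.16 between the 2 arms of miR-221. All are descriptions over 6 libraries, fewer in effect once the group means are removed. The miRNAs of other hairpins were picked by r over the same libraries, so a high value here is in part selected. Differences in scaling between libraries also move miRNAs together.

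None of the other tested miRNAs listed as repressors of Cip/Kip inhibitors, the family of CDKN1A, CDKN1B and CDKN1C, was called lower with AA2P in the TPM as deposited. Over the whole table limma called 107 of 433 entries (24.7%), 19.9% of the tested entries as higher and 4.85% as lower with AA2P. With so small a share of lower calls, lists this short would often hold none. Among 5 other miRNAs reported to repress CDKN1B, or close relatives of one that is, 4 were tested, 2 rose and none fell, with a median log2 fold change of 0.50 against 0.25 for all entries. miR-181a rose from 75.97 ± 8.46 to 126.3 ± 5.86 TPM (log2 fold change 0.73, limma adjusted p = 0.00519) and miR-181b from 78.22 ± 8.55 to 168.2 ± 18.3 TPM (1.09, limma adjusted p = 0.00315). miR-24-3p, the most abundant of them, stood at 3427 ± 184 and 3031 ± 362 TPM and did not pass, but passed as lower under 4 of 5 other scalings. miR-196b-5p stood at 134.1 ± 13 and 162.4 ± 26.8 TPM and did not pass. Their summed level was 3505.6 to 3929.44 TPM in controls and 3179.6 to 3903.29 TPM with AA2P, so it overlapped between groups.

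CDKN1C, which miR-221 and miR-222 also repress, is known as a target of members of the family of miR-25, miR-32, miR-92a, miR-92b and miR-363. Of 5 listed members 3 were tested, 2 rose and none fell (median log2 fold change 1.1), beside 19.9% called higher and 4.85% called lower over all tested entries. miR-32 rose from 201.3 ± 19.2 to 434.0 ± 59.7 TPM (limma adjusted p = 0.00362) and miR-92b-3p from 397.9 ± 41.2 to 872.4 ± 76.6 TPM (limma adjusted p = 0.00215). miR-92a, by far the most abundant, stood at 13956 ± 1138 and 11717 ± 498 TPM; it did not pass as deposited (limma adjusted p = 0.0739) and passed as lower under all 5 other scalings. For CDKN1A (p21), the Cip/Kip inhibitor repressed by miRNAs with the miR-17 seed, none of 4 tested members passed (median 0.09, 0 at an unadjusted p under 0.05), among them miR-17-5p, at 3906 ± 532 and 4156 ± 196 TPM, and miR-20a-5p, at 5770 ± 1123 and 6017 ± 314 TPM; miR-20b and miR-106a were scarcer.

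miR-146b and miR-146a-5p, named above for their likeness to miR-222, belong to a list of miRNAs reported to be induced by AP-1 or NF-κB; miR-29a-3p, miR-210 and miR-574-5p, also named there, do not. Of 6 members of that list, all tested, 4 fell and 1 rose, with a median log2 fold change of -0.48. The shares over all tested entries were 4.85% called lower and 19.9% called higher. miR-146b fell from 165.4 ± 9.21 to 53.08 ± 10.5 TPM (log2 fold change -1.64, SE 0.160, limma adjusted p = 0.00215) and miR-146a-5p from 4262 ± 309 to 1804 ± 185 TPM (-1.24, SE 0.102, limma adjusted p = 0.00140). miR-155-5p fell from 578.0 ± 76.0 to 376.0 ± 32.5 TPM (-0.61, limma adjusted p = 0.0159), a call that ended without control replicate 2 or 3 (limma adjusted p = 0.0606 and 0.0670). The fourth was miR-21-5p (-0.35, limma adjusted p = 0.0254), a call lost under 8 of 18 alternatives. These included the omission of any 1 control library or AA2P replicate 1, the replicate number as a block (limma adjusted p = 0.126) and quantile normalization, which set its change to 0. miR-9 rose from 2654 ± 79.2 to 4011 ± 346 TPM (0.59, limma adjusted p = 0.00443), a call that ended with totals without miR-21-5p (0.30, limma adjusted p = 0.0749), and miR-132, better known as induced by CREB, stood at 2.363 ± 0.592 and 4.400 ± 0.866 TPM and did not pass. These lists were drawn up with the results of these libraries known, so their counts are not independent evidence of a direction.

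**Figure D5:**
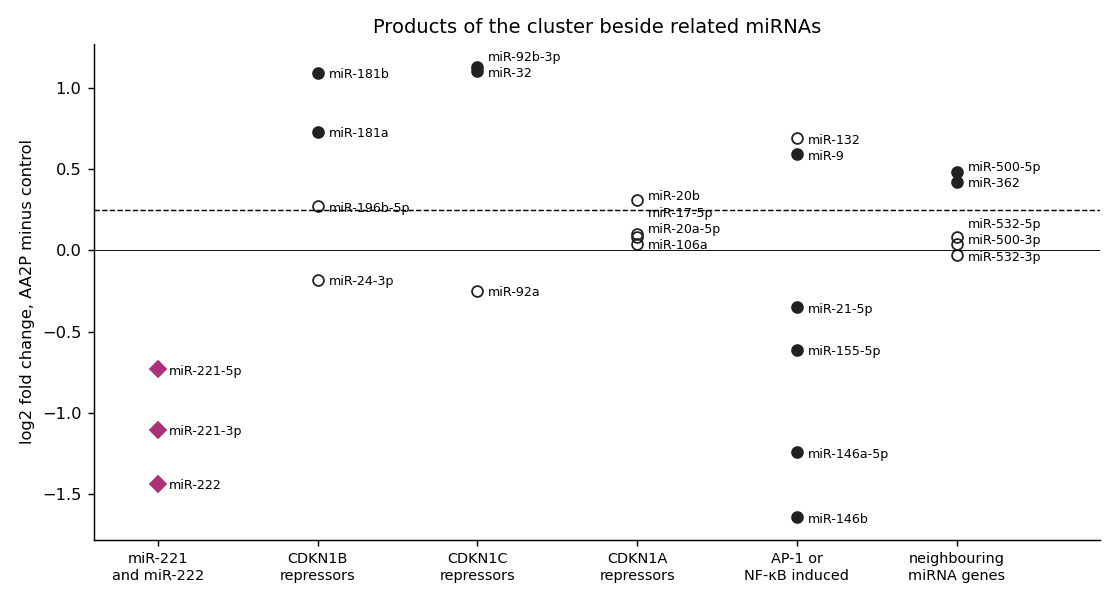
Log2 fold change with AA2P (y axis) of the 3 products (diamonds) and of tested miRNAs in 5 lists (circles; filled where limma called them, open where it did not); the dashed line is the median of all tested entries, 0.25. Only the list of AP-1 or NF-κB induced miRNAs holds members below the -0.73 of miR-221-5p, miR-146b at -1.64 and miR-146a-5p at -1.24.

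In the RefSeq gene table of the pig assembly Sscrofa11.1, MIR221 and MIR222 lie side by side with 0 annotated genes between them. The next miRNA genes beyond MIR221 are MIR9786-1 and MIR9794, whose products were not examined. Those beyond MIR222 are MIR9859, MIR532, MIR500 and MIR362. Only the order of genes was taken, not distances, and other annotated genes lie among them, so these need not be close to MIR222. miR-9859-3p was listed at 0 in 5 of the 6 libraries and at 0.04 TPM in AA2P replicate 1. None of the 5 tested products of the other 3 genes was called lower with AA2P as deposited. As 4.85% of all tested entries were called lower and 19.9% higher, 5 products would often hold no lower call. miR-500-5p and miR-362 rose (log2 fold changes 0.48 and 0.42, limma adjusted p = 0.0138 and 0.0156), calls that ended under all 5 other scalings. miR-532-5p, at 2134 ± 180 and 2247 ± 128 TPM, miR-500-3p and miR-532-3p did not pass. miR-500-3p, at 0.04 as deposited, passed as lower under trimmed-mean and median-of-ratios scaling (-0.24 and -0.23).

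Markers of other cells that the cultures could hold were measured in the same libraries. Of 9 endothelial and blood miRNAs the summed level was 103.24 to 117.17 TPM in controls and 92.48 to 125.53 TPM with AA2P, most of it miR-126-3p, the miRNA of endothelium, at 101.5 ± 6.50 and 96.37 ± 12.2 TPM. Of these 4 were tested and 1 passed, the leukocyte miRNA miR-142-3p, which rose from 0.5067 ± 0.0802 to 1.980 ± 0.627 TPM (limma adjusted p = 0.0293), a call that ended in 9 of 17 alternatives, among them without control replicate 1, 2 or 3 or AA2P replicate 1 or 3. With quantile normalization, trimmed-mean scaling and scaling by median of ratios, miR-126-3p passed as lower (-0.35, -0.36 and -0.35), and so did miR-486, a miRNA of red blood cells (-0.72, -0.73 and -0.73). In AA2P replicate 1, the lowest library for the 3 products, miR-142-3p stood at 2.68 TPM and miR-223, a miRNA of myeloid cells, at 5.4 TPM, against at most 1.79 and 0.06 TPM in the other libraries. Without it the changes of miR-222, miR-221-3p and miR-221-5p were -1.31, -1.04 and -0.59. miR-144 and miR-223 were listed at 0 in 4 and 3 libraries, and miR-150 in 1. Of 9 myoid and fibroblast miRNAs the sum was 169.7 to 228.93 TPM and 221.33 to 308.61 TPM, most of it miR-1, and none of 5 tested passed (1 at an unadjusted p under 0.05). The other tested members were scarcer. miR-143-3p stood at 34.6 ± 10.7 and 30.78 ± 8.22 TPM and miR-133a-3p at 6.7 ± 1.09 and 8.677 ± 1.76 TPM. miR-199a-3p stood at 1.807 ± 0.421 and 1.62 ± 0.0819 TPM and miR-145-5p at 1.283 ± 0.355 and 1.893 ± 0.77 TPM. The sum thus says little about these other members, as it mostly followed miR-1. That miRNA passed as higher without AA2P replicate 3, with a mean of 10 TPM required, and when only known miRNAs were tested (limma adjusted p = 0.0496, 0.040 and 0.00268), and miR-214-3p was listed at 0 in 3 libraries. Of the germ cell list 2 of 9 members matched a listed entry by name and 1 was tested. miR-371-5p stood at 0.02333 ± 0.0208 and 0.05667 ± 0.0462 TPM and did not pass the filter on low values. The tested member, miR-34c, rose from 178.2 ± 8.01 to 241.9 ± 36.3 TPM (limma adjusted p = 0.0464), a call that ended under all 5 other scalings and without any 1 library other than AA2P replicate 2. The part of other cells in the levels of miR-221 and miR-222 was not tested.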

How the data were processed

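The authors deposited 1 table of TPM for 6 small RNA libraries, sequenced on an Illumina NovaSeq instrument in a single lane per the labels' protocols. Per the submitters' processing notes Bowtie was among the tools; its version and role, the build, the miRBase release and how reads shared by similar miRNAs were counted are not stated in the sources used here. Each deposited TPM column sums to the same total with no length term seen. Depth was read from the step between low values. No count test was run.

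Entries that reached 1 TPM in 3 or more libraries were fitted as log2(TPM + 1) with limma 3.58.1 in R 4.3.3, with a mean-variance trend, two-sided, adjusted by Benjamini-Hochberg over 433 entries, calls at an adjusted p under 0.05. Fold values are ratios of mean TPM. The fit was tested on simulated data. Libraries sharing a number deviated together with r of 0.29, 0.06 and 0.18, not all over 0.1, so no block was used. Those with different numbers had r of -0.26 to 0.11, so a pairing by number remains possible. With the block the calls over the whole table were 63 instead of 107. The 3 products, the lists, the tests and the rule for named miRNAs (products, called or abundant list members, closest in pattern, next in level) were chosen with earlier results of these data known; the neighbouring genes were added after the table was seen. Alternatives were other pseudocounts, filters, scalings, a block and leaving out each library. 1 list of related miRNAs is not reported here.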

Additional observations from a re-analysis of the deposited data

How the results depend on the processing

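The sign of the change of miR-222, miR-221-3p and miR-221-5p held in 18 of 18 alternatives. Changes beyond 1 SD between replicates came from scaling alone: -1.71, -1.38 and -1.01 with trimmed-mean scaling, -1.70, -1.37 and -1.0 with median-of-ratios scaling, -1.73, -1.40 and -1.03 with totals without miR-21-5p, and, for miR-222, -1.63 with totals without the 10 most abundant miRNAs. The count of calls over the whole table, 107 as deposited, was 57 with no filter on low values and 63 with the replicate block, and 62 to 98 with 1 library left out, the lowest without control replicate 3. Higher and lower calls were 86 and 21 as deposited, 48 and 50 with trimmed-mean or median-of-ratios scaling, 44 and 39 with quantile normalization, 39 and 43 with totals without miR-21-5p, and 55 and 36 with totals without the 10 most abundant miRNAs.

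With 1 library left out the mean log2 ratio was -0.57 to -0.45 for miR-222 to miR-221-3p, -3.76 to -3.58 for miR-221-5p to miR-221-3p and -3.28 to -3.06 for miR-221-5p to miR-222, with an exact permutation p of 0.0625, the smallest that 5 libraries allow. The calls among AP-1 or NF-κB induced miRNAs, 5 as deposited, were 3 to 5 with 1 library left out (3 without control replicate 2 or 3). miR-140-3p turned lower under quantile normalization (-0.31), as did miR-500-3p under trimmed-mean (-0.24) and median-of-ratios scaling (-0.23). Of 38 related miRNAs tested, 20 kept their side of the threshold in all alternatives in which they were tested, though some uncalled ones changed sign. Apart from these scalings, the cause of a lost call was not tested. The libraries shared numbers in their labels, but the block rests on numbers alone; each library correlated best with its own number except control replicate 2.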
